A study of Mus musculus with 8 samples.

Results

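The collagen genes were examined in RNA-seq libraries of the mouse line C3H10T1/2, mesenchymal stem cells (MSCs) that can become fat cells. A gene was taken as a collagen when its symbol consists of Col, a number, the letter a and a number, which held for 44 of the 41325 gene symbols listed in each library. By the known assembly of their proteins, 11 of them encode fibrillar collagens, 6 basement membrane collagens, 9 fibril-associated collagens (FACIT) and 18 other collagens. The control line (shControl, genotype labelled WT) and 3 stable knockdown lines (shKDM4D, shNFIB and shMLL1) gave RNA at day 0 and at day 5, which makes 8 libraries, each the only one of its condition. The knockdown lines carry a pLKO.1 vector with a short hairpin RNA (shRNA) against *Kdm4d*, which encodes a histone demethylase, *Nfib*, which encodes a nuclear factor I transcription factor, or *Mll1* (*Kmt2a*), which encodes a histone methyltransferase. Day 0 was post-confluent cells before induction. After day 0 every line received insulin, dexamethasone and isobutylmethylxanthine in medium with fetal bovine serum, then insulin alone, then serum medium. The methods describe the knockdown lines as puromycin-resistant clones without stating which clone was sequenced, so a difference between lines cannot be told apart from a difference between clones.

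Collagens are secreted proteins whose chains wind into a triple helix. Fibrillar collagens form the cross-linked fibrils that carry tension, type IV collagens form the sheet-like network of basement membranes, FACIT collagens sit on the surface of fibrils, and type VI collagen forms beaded filaments around cells. MSCs and fibroblasts secrete mainly type I and type III collagen, and fat cells in tissue are each wrapped in a basement membrane.

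Levels are given as RPKM, which is the number of reads divided by exon length in kilobases and scaled to 1000000 mapped reads, so that levels of different genes can be compared per length. A gene was regarded as expressed when its RPKM was over 1 in at least 1 library, which held for 11513 genes, and a difference was counted when it was more than 2-fold in RPKM. The number of mapped reads recovered from the values ranged from 15842221 (shNFIB, day 5) to 38202580 (shMLL1, day 0). With 1 library per condition there is no replicate check and no p-value. The log2 ratios therefore come with exact 95% intervals that cover counting error only. *Nfib* was lower in shNFIB than in shControl cells (log2 ratio -2.10 at day 0 and -2.33 at day 5) and *Kmt2a* was lower in shMLL1 cells (-1.37 and -1.70), while *Kdm4d* had between 1 and 13 reads in the shControl and shKDM4D libraries and its knockdown was not detectable at day 0. At day 5 the log2 ratio of *Kdm4d* was -1.86 (95% interval -3.94 to -0.17), on 4 reads against 13. The study itself reports the decrease of KDM4D in its knockdown lines by RT-qPCR and immunoblot. Of 7 MSC or fibroblast markers 6 were over an RPKM of 1, but *Nt5e* was near 0 in all 8 libraries and *Thy1*, which had an RPKM at day 0 of 25.0 (shControl) and 11.8 (shMLL1), was at 0.0171 in shKDM4D and 0.0179 in shNFIB cells. The summed RPKM of 7 adipocyte markers went from 0.702 to 808 in shControl cells but reached at day 5 only 25.6 (shKDM4D), 0.936 (shNFIB) and 2.89 (shMLL1) in the knockdown lines. In these bulk libraries, fewer cells of a type and less RNA per cell cannot be told apart. The genes *AY036118* and *CT010467.1*, which resemble ribosomal RNA, held 7.95% to 10.5% of a day 0 library and 3.07% to 3.62% of a day 5 library. Leaving those reads out would lower every day 5 to day 0 log2 ratio by between 0.07 and 0.11.

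Of the 44 collagen genes 26 were expressed, namely 10 fibrillar, 3 basement membrane, 4 FACIT and 9 other collagens, and 20 had an RPKM over 10 in at least 1 library. The other 18 stayed at or below an RPKM of 0.580 in every library. Among them were the fibrillar *Col24a1*, the type IV chains *Col4a3*, *Col4a4* and *Col4a6*, the cartilage collagens *Col9a1*, *Col9a2* and *Col10a1*, the FACIT genes *Col14a1*, *Col19a1* and *Col22a1*, the type VI chains *Col6a4*, *Col6a5* and *Col6a6*, and the anchoring fibril gene *Col7a1*, which had the highest level of the 18. The transmembrane *Col13a1*, *Col17a1* and *Col25a1* and *Col26a1* complete the list. Of the 26, 21 passed the limit at both days and 5 (*Col5a3*, *Col11a2*, *Col27a1*, *Col9a3* and *Col20a1*) passed it at day 5 only, so that these 5 had to be higher at day 5 in at least 1 line.

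**Figure D1:**
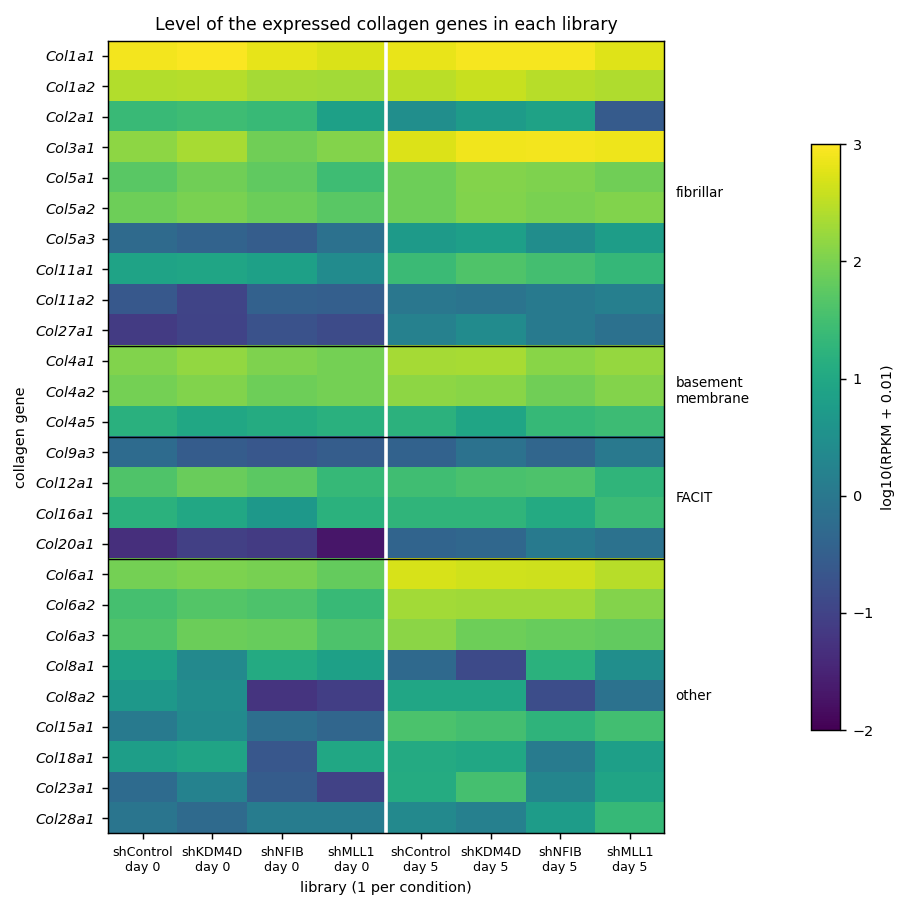
Levels of the 26 expressed collagen genes (rows, grouped by class) in the 8 libraries (columns, day 0 left and day 5 right of the white line), as log10(RPKM + 0.01) on a colour scale. The type I genes are high in every column, whereas *Col3a1*, *Col6a1* and *Col6a2* are brighter at day 5 in every line and *Col8a2* is darker in both shNFIB and both shMLL1 columns than in the other 4.

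Collagens took a larger share of the reads at day 5 than at day 0 in every line. The share went from 1.52% to 2.45% in shControl, from 1.89% to 2.89% in shKDM4D, from 1.33% to 2.66% in shNFIB and from 1.09% to 2.26% in shMLL1 cells, and the 95% counting intervals (Wilson) extend at most 0.01 percentage points to either side. *Col1a1*, *Col1a2* and *Col3a1* together made up between 55.2% and 66.1% of the collagen reads. The class whose share grew by the largest factor in shControl cells was that of the beaded filament collagens, from 0.118% to 0.549% of all reads, while FACIT genes went from 0.0736% to 0.0573%. In shNFIB cells the share of fibrillar collagens went from 0.934% to 1.97% and that of basement membrane collagens from 0.141% to 0.167%.

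**Figure D2:**
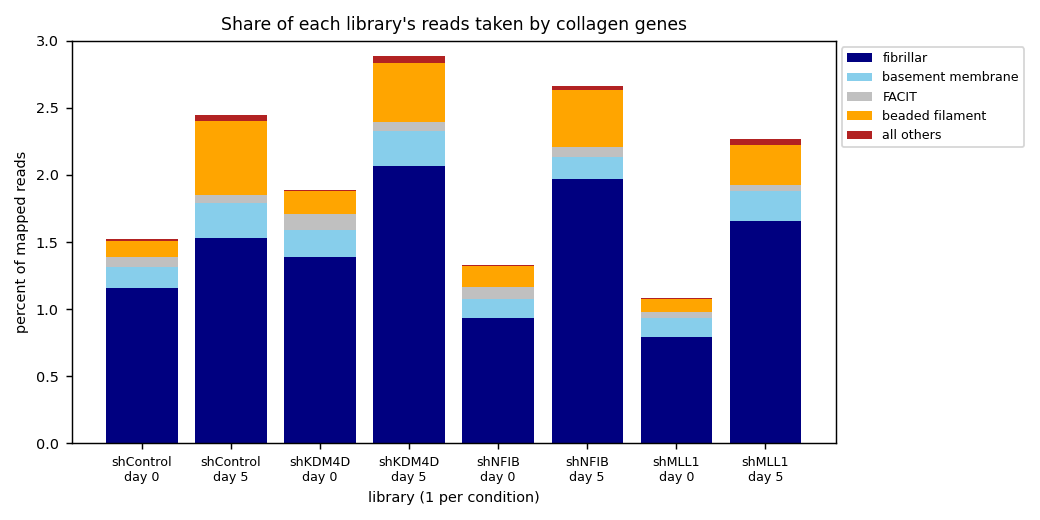
Share of the mapped reads of each library (y axis, percent, starting at 0) taken by collagen genes, stacked by class, with day 0 and day 5 side by side for each line. The summed share is higher at day 5 in each of the 4 lines and runs from 1.09% (shMLL1, day 0) to 2.89% (shKDM4D, day 5).

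The first question was how collagens differ between MSCs and cells at day 5 of adipogenic differentiation. In shControl cells, 12 of the 26 expressed collagens were higher at day 5 (13.0% of all expressed genes were) and 2 were lower (8.56% of all). In shKDM4D cells 13 were higher (12.8% of all) and 2 lower (8.44% of all), in shNFIB cells 14 were higher (12.6% of all) and 1 lower (4.96% of all), and in shMLL1 cells 15 were higher (20.4% of all) and 2 lower (6.89% of all). Without the 5 genes that passed the limit at day 5 only, 8, 8, 10 and 10 of 21 were higher in the 4 lines, against 8.62%, 8.40%, 8.10% and 15.7% of the 10439 genes that passed at both days. On the log2(RPKM + 0.1) scale the median change of the 26 collagens was 0.94 for shControl, 1.04 for shKDM4D, 1.10 for shNFIB and 1.52 for shMLL1 cells, beside 0.03, 0.03, 0.09 and 0.17 for all expressed genes. Over the 21 that passed at both days it was 0.85, 0.48, 0.85 and 0.88, beside -0.01, -0.00, 0.06 and 0.11 for all genes that passed at both days. A total of 11 collagens were higher at day 5 in all 4 lines, as were 6.93% of expressed genes, and *Col2a1* was lower in all 4, as were 2.48%. Of the 11, 4 (*Col5a3*, *Col11a2*, *Col27a1* and *Col20a1*) are among those that passed the limit at day 5 only, and without them 7 of 21 were higher in every line, against 3.76% of the genes that passed at both days. The genes higher in every line were *Col3a1*, *Col5a3*, *Col11a1*, *Col11a2* and *Col27a1* among the fibrillar collagens, *Col20a1* among the FACIT collagens, and *Col6a1*, *Col6a2*, *Col15a1*, *Col23a1* and *Col28a1* among the others. For each gene in this list, every day 5 library also lay above every day 0 library, given below as days that do not overlap. The list was picked by its day 5 to day 0 ratios, which favours such a separation. The share of all expressed genes with that separation was not counted, so it is not set apart from other genes. The gap was slim for *Col23a1* (highest day 0 RPKM 1.63, lowest day 5 RPKM 1.85) and *Col28a1* (1.26 and 1.49). Past 2-fold in no line were 6 of the 26 expressed collagens, as were 63.5% of expressed genes. They were *Col1a1*, *Col1a2*, *Col12a1* and the 3 expressed basement membrane collagens, *Col4a1*, *Col4a2* and *Col4a5*. The summed adipocyte markers at day 5 ran from 0.936 to 808 over the same 4 lines, and the part of the adipocyte markers in the collagen values was not tested.

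**Figure D3:**
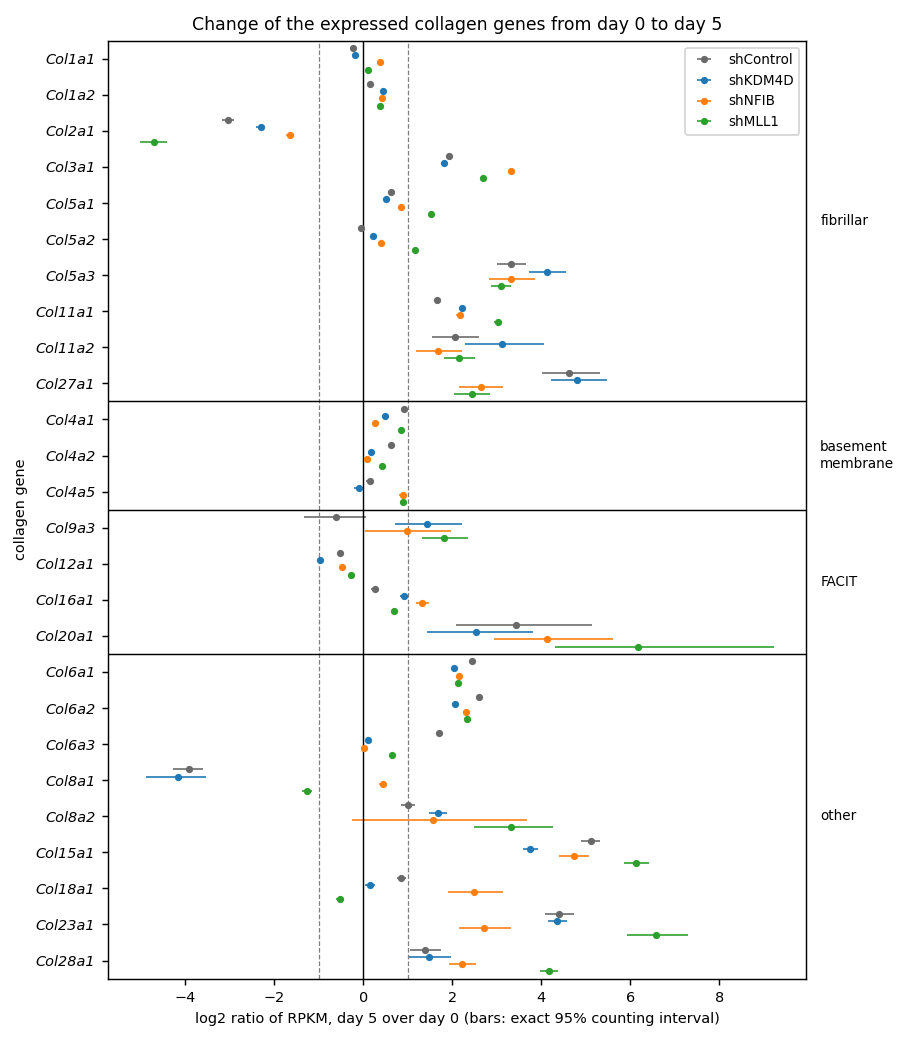
Log2 ratio of RPKM at day 5 over day 0 (x axis) for the 26 expressed collagen genes (y axis, grouped by class) in the 4 lines (colours), with exact 95% counting intervals as bars and dashed lines at 2-fold. Type I and type IV genes lie between the dashed lines in every line, *Col15a1* and *Col23a1* lie far to the right, and *Col8a1* is split between the lines.

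Among the fibrillar collagens, *Col1a1* had the highest RPKM of all collagens in 7 of 8 libraries, and both type I genes stayed within 2-fold between the days. *Col1a1* (chr11:94936224-94953042 of GRCm38) had an RPKM at day 0 and day 5 of 809 and 688 in shControl, 953 and 842 in shKDM4D, 659.8 and 859 in shNFIB and 530.0 and 569 in shMLL1 cells. *Col1a2*, which encodes the other chain of type I collagen, was at 269 and 301 in shControl, 278 and 378 in shKDM4D, 213 and 287 in shNFIB and 199 and 259 in shMLL1 cells. Both genes had their lowest day 0 level in shMLL1 cells. Type I collagen is built mainly from 2 chains of the first kind and 1 of the second, and the ratio of *Col1a1* to *Col1a2* RPKM lay between 2.20 and 3.43 and was lower at day 5 in each of the 4 lines (3.01 to 2.28 in shControl, 3.09 to 2.99 in shNFIB cells).

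*Col3a1* (chr1:45311538-45349706), which encodes the chain of type III collagen that mixes with type I in stretchable tissues, went from 140.4 to 535 in shControl, from 225 to 787 in shKDM4D, from 82.6 to 824 in shNFIB and from 118 to 763 in shMLL1 cells. All 4 day 5 libraries lay above all 4 day 0 libraries, and in shMLL1 cells *Col3a1* overtook *Col1a1* as the collagen with the highest RPKM. The log2 change was 1.93 (95% interval 1.91 to 1.95) in shControl, 1.81 (1.79 to 1.82) in shKDM4D, 3.32 (3.29 to 3.34) in shNFIB and 2.70 (2.68 to 2.71) in shMLL1 cells. Its neighbour *Col5a2*, which lies 24614 bp away on chromosome 1 and is transcribed towards it, differed by -0.05, 0.22, 0.39 and 1.16 in the same lines.

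The type V and type XI chains, which are minor partners within fibrils and set their diameter, fell into an abundant and a scarce group. *Col5a1* was at 51.6 and 79.9 RPKM at day 0 and day 5 in shControl, 82.3 and 118 in shKDM4D, 59.8 and 108 in shNFIB and 28.4 and 81.2 in shMLL1 cells. *Col5a2* was at 79.8 and 77.1 in shControl, 97.4 and 114 in shKDM4D, 75.6 and 99.0 in shNFIB and 51.4 and 115 in shMLL1 cells. Both were past 2-fold between the days in shMLL1 cells, where their day 0 level was the lowest of the 4 lines (log2 change 1.52, 95% interval 1.48 to 1.55, and 1.16, 1.13 to 1.18), and in no other line. Both scaling alternatives put *Col5a2* there at 0.95, within 2-fold. *Col11a1* went from 8.07 to 25.3 in shControl, from 8.84 to 41.4 in shKDM4D, from 6.99 to 31.5 in shNFIB and from 2.60 to 21.1 in shMLL1 cells, with no overlap between the days.

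The scarce fibrillar genes were higher at day 5 in each line from low levels. *Col5a3* went from 0.524 to 5.24 in shControl, 0.383 to 6.68 in shKDM4D, 0.283 to 2.85 in shNFIB and 0.707 to 6.05 in shMLL1 cells. *Col11a2* went from 0.225 to 0.939, from 0.0974 to 0.847, from 0.353 to 1.14 and from 0.314 to 1.40 in the same order of lines. *Col27a1* went from 0.0634 to 1.57, from 0.0904 to 2.54, from 0.173 to 1.08 and from 0.131 to 0.707, and its log2 change was larger in shControl (4.63, 95% interval 4.01 to 5.32) and shKDM4D cells (4.81, 4.21 to 5.48) than in shNFIB (2.64, 2.16 to 3.15) and shMLL1 cells (2.44, 2.05 to 2.84). These 3 genes passed the limit of RPKM 1 through their day 5 libraries.

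*Col2a1*, the fibrillar collagen of cartilage, went the other way. Its RPKM was 24.5 at day 0 and 2.99 at day 5 in shControl, 27.5 and 5.59 in shKDM4D, 23.4 and 7.48 in shNFIB and 6.87 and 0.264 in shMLL1 cells. In each line the day 5 level was lower, by a log2 ratio of -3.03 (95% interval -3.16 to -2.90) in shControl, -2.30 (-2.40 to -2.21) in shKDM4D, -1.64 (-1.74 to -1.55) in shNFIB and -4.70 (-5.02 to -4.40) in shMLL1 cells. Of 7 chondrocyte markers only *Sox9* and *Cnmd* had an RPKM over 1 in a library. *Acan*, the main proteoglycan gene of cartilage, had no read in 7 of 8 libraries and 0.00619 in the eighth. *Sox9*, which encodes a transcription factor known to activate *Col2a1*, was higher at day 5 in each line (59.3 and 133 in shControl, 72.0 and 132 in shMLL1 cells). *Cnmd* was also higher at day 5 in each line, from 0 to 0.646 RPKM in shControl cells. The part of these markers in the *Col2a1* level was not tested.

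The 3 expressed basement membrane collagens stayed within 2-fold between the days in all 4 lines, as did 63.5% of all expressed genes. *Col4a1* (chr8:11198423-11312826) had an RPKM at day 0 and day 5 of 113 and 211 in shControl, 155 and 217 in shKDM4D, 109 and 129.9 in shNFIB and 89.0 and 159.8 in shMLL1 cells. *Col4a2* (chr8:11312805-11449287), whose chain joins that of *Col4a1* in 1 trimer, was at 91.5 and 142 in shControl, 114 and 129 in shKDM4D, 77.3 and 82.5 in shNFIB and 89.6 and 119.8 in shMLL1 cells. The log2 change of *Col4a1* was 0.91 (95% interval 0.88 to 0.93) for shControl, 0.48 for shKDM4D, 0.26 for shNFIB and 0.84 for shMLL1 cells. That of *Col4a2* was 0.63, 0.18, 0.09 and 0.42, smaller in each line. The ratio of *Col4a1* to *Col4a2* lay between 0.993 and 1.68. *Col4a5*, a chain of specialised basement membranes such as that of the kidney glomerulus, was at 15.0 and 16.6 in shControl, 9.43 and 8.88 in shKDM4D, 12.0 and 22.4 in shNFIB and 14.7 and 27.2 in shMLL1 cells, and its head-to-head neighbour *Col4a6* was not expressed.

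*Col4a1* and *Col4a2* lie head to head on opposite strands, with annotated starts 21 bp apart and an overlap of 22 bp, so both are read from 1 stretch of DNA in opposite directions. Their promoter windows, from 250 bases before to 50 after the start, are shown because both genes are read from them. They come from RefSeq (GRCm38.p6), run 5′ to 3′ on the strand of each gene and share 78 bases. Capitals mark TTGGC, the half-site bound by nuclear factor I proteins, or its reverse complement GCCAA. The first is chr8:11312777-11313076 on the minus strand, with 4 half-sites, and the second chr8:11312555-11312854 on the plus strand, with 1 half-site that is the same 5 bases as 1 of the other 4.
Col4a1: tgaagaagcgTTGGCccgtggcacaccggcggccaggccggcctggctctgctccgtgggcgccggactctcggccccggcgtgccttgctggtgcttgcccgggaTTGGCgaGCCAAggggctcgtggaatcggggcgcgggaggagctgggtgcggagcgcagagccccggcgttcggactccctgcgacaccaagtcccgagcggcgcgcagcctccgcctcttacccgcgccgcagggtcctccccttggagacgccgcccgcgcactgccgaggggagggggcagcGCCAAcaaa
Col4a2: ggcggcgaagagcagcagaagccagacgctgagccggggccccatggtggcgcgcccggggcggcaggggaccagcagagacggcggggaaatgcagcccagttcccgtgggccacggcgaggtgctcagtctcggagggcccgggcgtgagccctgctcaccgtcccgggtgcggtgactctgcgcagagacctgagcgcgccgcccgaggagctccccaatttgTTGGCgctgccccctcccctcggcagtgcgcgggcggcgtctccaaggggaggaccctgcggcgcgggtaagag
TTGGC was searched on both strands and can overlap ATTGG, the reverse complement of the CCAAT box. It was found in 42.1% of the 38 windows of 35 collagen genes and in 46.7% of all 32851 windows, and the full palindrome (TTGGC, 5 bases of any kind, GCCAA) in 0 of 38 and in 0.0365% of all. CCAAT was in 34.2% of the collagen windows and in 37.4% of all, and TATAA in 18.4% and 24.9%. A match in these letters is a description and not a bound site.

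The FACIT collagens showed no common direction. *Col12a1*, the most abundant of them, which sits on type I fibrils, was at 41.1 and 28.9 RPKM at day 0 and day 5 in shControl, 73.1 and 37.1 in shKDM4D, 55.6 and 40.0 in shNFIB and 22.4 and 18.4 in shMLL1 cells. It was lower at day 5 in each line but by less than 2-fold, with log2 ratios from -0.98 (shKDM4D, -1.03 under either scaling alternative) to -0.28 (shMLL1). *Col16a1* was at 15.9 and 19.0 in shControl, 9.83 and 18.6 in shKDM4D, 4.55 and 11.5 in shNFIB and 15.9 and 25.8 in shMLL1 cells, and was past 2-fold in shNFIB cells (1.33, 95% interval 1.19 to 1.48).

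The other 2 expressed FACIT genes rested on few reads. *Col9a3*, a cartilage collagen, was at 0.555 and 0.363 in shControl, 0.279 and 0.756 in shKDM4D, 0.222 and 0.442 in shNFIB and 0.292 and 1.03 in shMLL1 cells. In shControl cells its log2 ratio was -0.62 with an interval from -1.33 to 0.07, so a difference was not detectable at this depth, and quantile normalization put it at -1.25. The day 5 level was past 2-fold higher in shKDM4D (1.44) and shMLL1 cells (1.82), and quantile normalization brought both within 2-fold (0.85 and 0.83). *Col20a1* was at 0.0365 and 0.392, 0.0796 and 0.459, 0.0625 and 1.09, and 0.0102 and 0.740 in shControl, shKDM4D, shNFIB and shMLL1 cells, with between 2 and 8 reads in the day 0 libraries. Its ratio in shMLL1 cells, 6.18, has a counting interval from 4.30 to 9.24.

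Among the other collagens, type VI collagen had a leading place at day 5. *Col6a1* (chr10:76708792-76726168) went from 89.5 to 489 in shControl, from 104 to 427 in shKDM4D, from 93.4 to 414 in shNFIB and from 65.4 to 285 in shMLL1 cells. *Col6a2* (chr10:76595762-76623630), which follows it on the same strand after 85161 bp, went from 34.0 to 206, from 46.3 to 193, from 40.1 to 198 and from 23.1 to 117 in the same lines. Days did not overlap for either gene, and *Col6a1* was the third most abundant collagen at day 5 in every line. The log2 change of *Col6a1* was 2.45 (95% interval 2.42 to 2.48) in shControl, 2.04 (2.01 to 2.08) in shKDM4D, 2.15 (2.11 to 2.19) in shNFIB and 2.12 (2.09 to 2.15) in shMLL1 cells, and *Col6a2* differed by 2.60, 2.06, 2.30 and 2.34.

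*Col6a3* (chr1:90765923-90843971), which encodes the third chain of the same trimer and the precursor of the fat-tissue peptide endotrophin, did not follow the other two in the knockdown lines. It went from 42.1 to 137 in shControl cells, but was at 74.7 and 80.0 in shKDM4D, 69.5 and 70.0 in shNFIB and 40.7 and 63.9 in shMLL1 cells. The day 5 level in shControl cells was above all 7 other libraries. The log2 change was 1.70 (95% interval 1.67 to 1.73) in shControl, 0.10 (0.07 to 0.13) in shKDM4D, 0.01 (-0.02 to 0.05) in shNFIB and 0.65 (0.62 to 0.68) in shMLL1 cells. The ratio of *Col6a3* to *Col6a1* RPKM was lower at day 5 in every line, from 0.470 to 0.279 in shControl, 0.721 to 0.187 in shKDM4D, 0.744 to 0.169 in shNFIB and 0.623 to 0.224 in shMLL1 cells, whereas that of *Col6a1* to *Col6a2* stayed between 2.09 and 2.83. The adipocyte markers had the same order of shControl above the other lines at day 5, and their part in the *Col6a3* level was not tested.

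The type VIII chains, which build hexagonal networks in vessel walls and under the corneal endothelium, differed in opposite directions between the days in 3 of the 4 lines, and in shNFIB cells both were higher at day 5. *Col8a1* (chr16:57624258-57754737) was at 7.62 and 0.502 RPKM at day 0 and day 5 in shControl, 2.23 and 0.124 in shKDM4D, 11.3 and 15.5 in shNFIB and 6.98 and 2.93 in shMLL1 cells. It was lower at day 5 by more than 2-fold in shControl (-3.92, 95% interval -4.27 to -3.59), shKDM4D (-4.17, -4.88 to -3.53) and shMLL1 cells (-1.25, -1.37 to -1.14), and at 0.45 (0.35 to 0.54) in shNFIB cells. *Col8a2* (chr4:126286793-126314330) was at 4.53 and 9.04 in shControl and 2.82 and 9.03 in shKDM4D cells, but at 0.0477 and 0.141 in shNFIB and 0.0758 and 0.760 in shMLL1 cells. The 4 reads at day 0 and 10 at day 5 in shNFIB cells give its change there a counting interval from -0.24 to 3.69 on the log2 scale, and quantile normalization moved the change from 1.56 to 0.58. The ratio of *Col8a1* to *Col8a2* ranged from 0.0137 (shKDM4D, day 5) to 238 (shNFIB, day 0), the widest range of the 6 chain pairs compared.

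The multiplexins *Col15a1* and *Col18a1*, heparan sulphate or chondroitin sulphate carrying collagens of basement membrane zones, differed from each other. *Col15a1* (chr4:47208161-47313167) went from 1.13 to 38.9 in shControl, from 2.43 to 32.7 in shKDM4D, from 0.667 to 17.7 in shNFIB and from 0.437 to 30.9 in shMLL1 cells. This was a log2 change of 5.11 (95% interval 4.90 to 5.32), 3.75 (3.58 to 3.92), 4.73 (4.41 to 5.08) and 6.14 (5.87 to 6.43), with no overlap between the days. *Col18a1* (chr10:77052178-77166548), the precursor of endostatin, was at 6.33 and 11.5 in shControl, 8.32 and 9.30 in shKDM4D, 0.214 and 1.20 in shNFIB and 9.48 and 6.66 in shMLL1 cells. Both shNFIB libraries lay below the other 6. *Col18a1* overlaps *Slc19a1* on the opposite strand over 8825 bp, a gene with an RPKM of at most 2.62, and whether the counting used the strand is not given in the sources used here.

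Of the transmembrane collagens only *Col23a1* was expressed. *Col23a1* (chr11:51289920-51583918) went from 0.556 to 11.7 in shControl, from 1.63 to 33.6 in shKDM4D, from 0.280 to 1.85 in shNFIB and from 0.0867 to 8.21 in shMLL1 cells. Its log2 change was 4.40 (95% interval 4.08 to 4.73) in shControl, 4.36 (4.15 to 4.58) in shKDM4D, 2.72 (2.16 to 3.33) in shNFIB and 6.57 (5.92 to 7.30) in shMLL1 cells. *Col28a1*, a gene of the von Willebrand factor A domain collagens that is known mainly from the nervous system, went from 0.850 to 2.24 in shControl, from 0.532 to 1.49 in shKDM4D, from 1.22 to 5.72 in shNFIB and from 1.26 to 22.7 in shMLL1 cells. Its day 5 level in shMLL1 cells stood above all others, and its day 0 and day 5 libraries did not overlap.

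**Figure D4:**
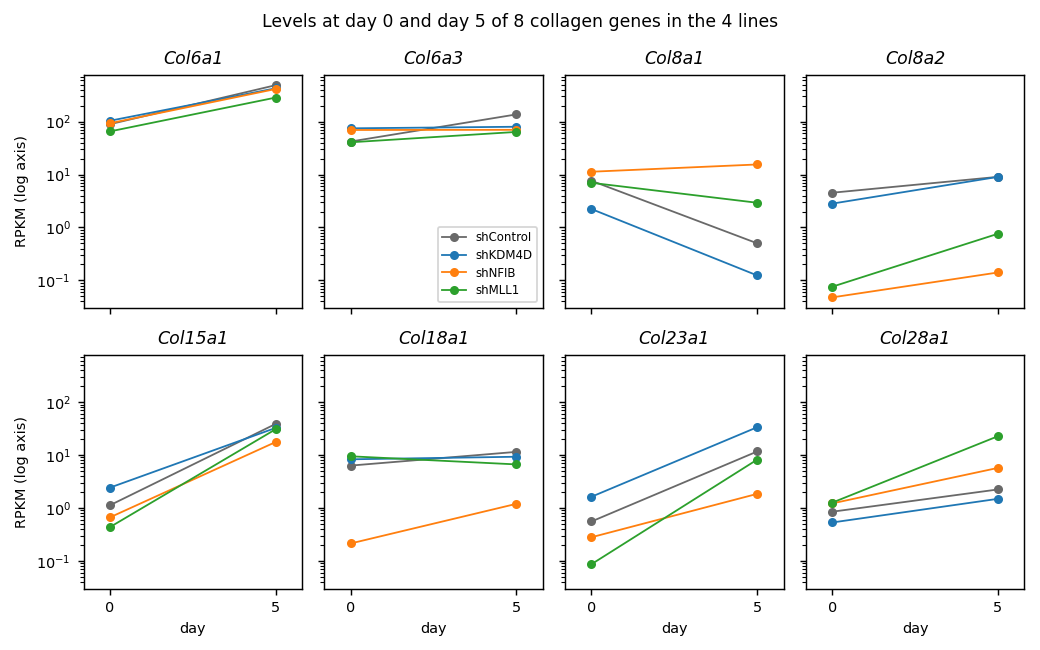
RPKM at day 0 and day 5 (x axis) of 8 collagen genes in the 4 lines (colours), on a shared log axis, with 1 library per point. *Col6a1* and *Col15a1* are higher at day 5 in each of the 4 lines, and *Col6a3* separates shControl cells at day 5. The shNFIB cells lie apart for *Col8a1* at day 5 and for *Col18a1* at both days.

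The second question was how the knockdown lines differ from shControl cells at the same day. All 3 comparisons at a day use the same shControl library, so they are given side by side and not as independent evidence. Most expressed collagens stayed within 2-fold of shControl cells in each line. In shKDM4D cells 3 were higher at day 0 (1.98% of all expressed genes were) and 2 lower (4.26% of all), or 3 and 1 after quantile normalization, and at day 5, 2 were higher (1.88% of all) and 1 lower (4.57% of all). In shNFIB cells 1 was higher (2.95% of all) and 4 lower (6.05% of all) at day 0, and 4 were higher (5.54% of all) and 4 lower (5.67% of all) at day 5. In shMLL1 cells 1 was higher (1.67% of all) and 6 lower (7.43% of all) at day 0, and 3 were higher (5.25% of all) and 4 lower (4.02% of all) at day 5. With groups of 26 these counts amount to a few genes, and several of them rest on few reads. The type I and type IV genes were past 2-fold in none of these 6 comparisons.

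**Figure D5:**
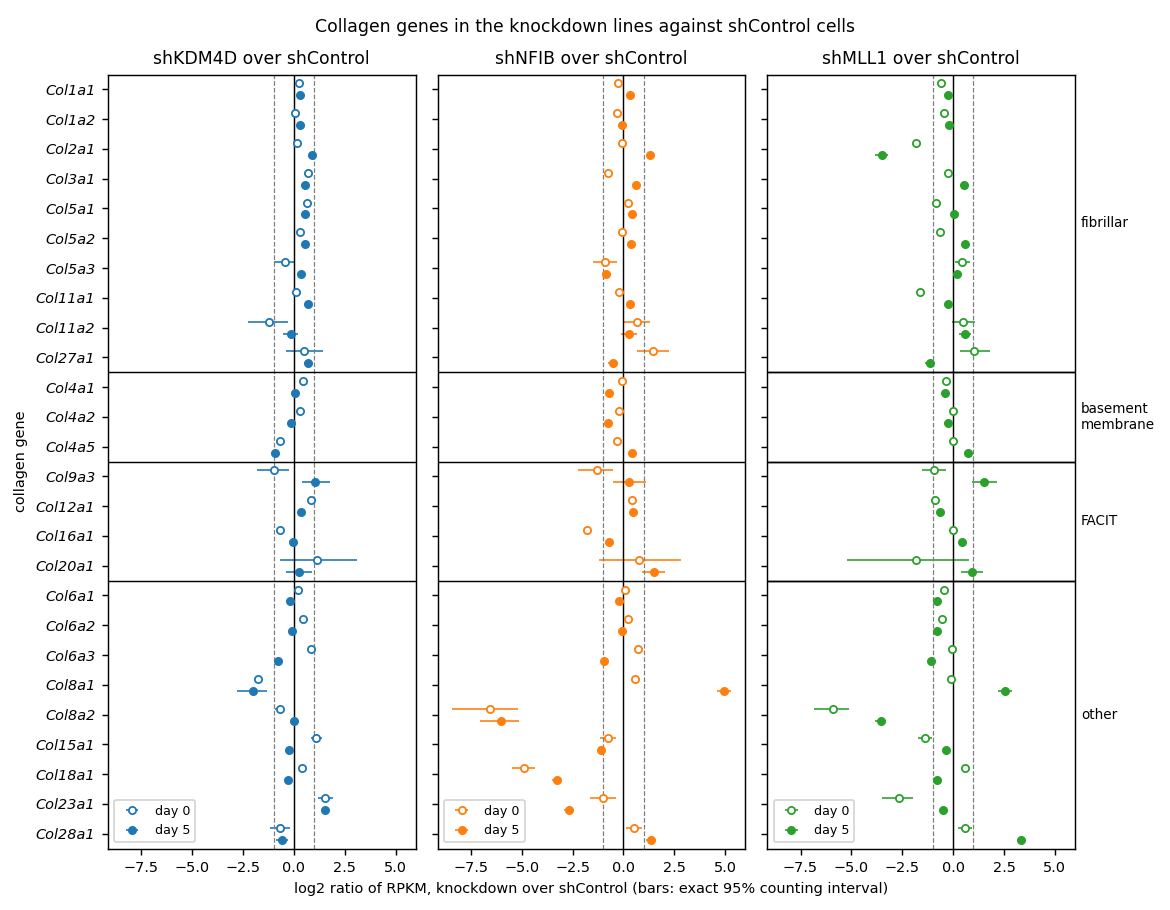
Log2 ratio of RPKM in each knockdown line over shControl cells (x axis, 1 panel per line) for the 26 expressed collagen genes (y axis), at day 0 (open) and day 5 (filled), with exact 95% counting intervals and dashed lines at 2-fold. *Col8a2* lies far to the left in the shNFIB and shMLL1 panels, *Col18a1* in the shNFIB panel, and *Col2a1* in the shMLL1 panel.

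In shKDM4D cells *Col23a1* was higher than in shControl cells at both days (log2 ratio 1.55, 95% interval 1.17 to 1.94, at day 0, then 1.52, 1.43 to 1.61, at day 5), and *Col8a1* was lower at both (-1.77, -1.95 to -1.60, and -2.02, -2.79 to -1.30). *Col15a1* was at 1.11 (0.84 to 1.38) at day 0 and at -0.25 (-0.31 to -0.19) at day 5. The remaining calls in this line, *Col20a1* and *Col11a2* at day 0 and *Col9a3* at day 5, were of genes with an RPKM of at most 0.756 in either library, and their intervals reach within 2-fold. The fibrillar genes *Col3a1*, *Col5a1* and *Col5a2* lay above shControl at both days by less than 2-fold, with ratios from 0.29 to 0.68.

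In shNFIB cells the genes furthest below shControl cells were *Col8a2* and *Col18a1*. *Col8a2* had a log2 ratio of -6.57 at day 0 (95% interval -8.45 to -5.20) and -6.01 at day 5 (-7.07 to -5.12), from 4 and 10 reads in shNFIB cells. *Col18a1* had -4.89 (-5.48 to -4.35) and -3.25 (-3.52 to -3.00). *Col16a1* was at -1.80 (-1.93 to -1.67) at day 0 and -0.73 at day 5. At day 5 *Col23a1* (-2.67, -2.91 to -2.43) and *Col15a1* (-1.13, -1.21 to -1.06) were also lower. Higher at day 5 were *Col8a1* (4.95, 4.62 to 5.30), *Col28a1* (1.35, 1.11 to 1.60), *Col2a1* (1.32, 1.17 to 1.47) and, on 89 reads against 39, *Col20a1* (1.48, 0.92 to 2.06). *Col6a3* was at -0.96 at day 5, and at -1.04 and -1.05 with median-of-ratios scaling and quantile normalization. *Col27a1* was higher and *Col9a3* lower at day 0, both at an RPKM of at most 0.555 in these 2 libraries.

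The promoter windows of the 2 genes furthest below shControl in shNFIB cells are shown with the half-site TTGGC of nuclear factor I, or its reverse complement, in capitals. *Col8a2* has 1 window, chr4:126286544-126286843 on the plus strand, with 1 half-site. *Col18a1* has 2 annotated starts with a window each on the minus strand, chr10:77166481-77166780 and chr10:77113656-77113955, and neither holds the half-site, which says only that these letters are not in these windows.
Col8a2: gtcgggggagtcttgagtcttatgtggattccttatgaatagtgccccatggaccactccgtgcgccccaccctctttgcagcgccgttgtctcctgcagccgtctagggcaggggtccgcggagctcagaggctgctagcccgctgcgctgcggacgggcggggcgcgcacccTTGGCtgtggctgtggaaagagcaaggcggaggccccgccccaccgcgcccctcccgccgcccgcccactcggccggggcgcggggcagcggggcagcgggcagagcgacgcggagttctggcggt
Col18a1, first window: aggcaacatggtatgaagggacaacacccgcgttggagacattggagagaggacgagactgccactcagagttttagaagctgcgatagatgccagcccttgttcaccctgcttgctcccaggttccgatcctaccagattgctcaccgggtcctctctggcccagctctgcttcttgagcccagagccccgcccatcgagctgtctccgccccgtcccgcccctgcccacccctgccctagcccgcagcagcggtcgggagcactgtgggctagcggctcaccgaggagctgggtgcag
Col18a1, second window: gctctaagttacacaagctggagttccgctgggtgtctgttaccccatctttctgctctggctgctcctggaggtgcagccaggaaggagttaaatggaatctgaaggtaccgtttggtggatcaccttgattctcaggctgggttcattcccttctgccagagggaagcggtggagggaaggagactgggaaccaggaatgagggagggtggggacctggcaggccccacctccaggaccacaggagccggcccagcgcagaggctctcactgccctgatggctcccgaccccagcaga
The other members named for this line vary in the same way, with 2 half-sites in the windows of *Col15a1* and *Col16a1*, 1 in those of *Col8a1*, *Col27a1* and *Col28a1*, and 0 in those of *Col6a3*, *Col20a1* and *Col23a1*. *Col2a1*, *Col9a3*, *Col1a1*, *Col5a2*, *Col12a1*, *Col4a3*, *Col14a1*, *Col22a1* and *Col26a1* had no matched window.

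In shMLL1 cells *Col8a2* was again far below shControl cells, at -5.90 on day 0 (95% interval -6.82 to -5.12) and -3.57 on day 5 (-3.85 to -3.30). *Col2a1* was lower at both days (-1.83, -1.90 to -1.76, and -3.50, -3.84 to -3.18). At day 0 *Col11a1* (-1.63, -1.73 to -1.53), *Col15a1* (-1.37, -1.73 to -1.02) and *Col23a1* (-2.68, -3.48 to -1.95) were lower as well, and at day 5 they were at -0.27, -0.33 and -0.51. Quantile normalization put *Col15a1* at -0.93 at day 0. At day 5 *Col6a3* (-1.10, -1.12 to -1.07) and *Col27a1* (-1.15, -1.36 to -0.94) were lower, and *Col28a1* (3.34, 3.14 to 3.55), *Col8a1* (2.55, 2.21 to 2.90) and *Col9a3* (1.51, 0.92 to 2.16) were higher. *Col20a1* at day 0 rested on 2 reads against 5, with a ratio of -1.84 and an interval from -5.23 to 0.77, and *Col27a1* was at 1.04 (0.33 to 1.81) there. The adipocyte markers were far below shControl cells at day 5 in all 3 knockdown lines, and *Thy1* was near 0 in shKDM4D and shNFIB cells at both days, and their part in these differences was not tested.

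The genes whose products make, cut and cross-link collagen, and those of collagen receptors, were examined beside the collagens themselves. Of 40 such genes listed 35 were expressed, 5 of them receptor genes. Between day 0 and day 5, 9 were higher and 2 lower in shControl (13.0% and 8.56% of all expressed genes were), 7 and 5 in shKDM4D (12.8% and 8.44% of all), 8 and 1 in shNFIB (12.6% and 4.96% of all) and 14 and 1 in shMLL1 cells (20.4% and 6.89% of all). Their medians were 0.51, 0.56, 0.65 and 0.91 on the log2(RPKM + 0.1) scale, beside 0.03, 0.03, 0.09 and 0.17 for all expressed genes. Among the 35, *Loxl2*, *Adamts14* and *Itga1* passed the limit of RPKM 1 at day 5 only. These genes therefore had to be higher at day 5 in at least 1 line. All of them are in the higher counts of shControl and shKDM4D cells. *Loxl2* and *Adamts14* are in that of shNFIB cells, and *Loxl2* and *Itga1* in that of shMLL1 cells. Counts and medians without them were not made. The 14 expressed genes that modify prolines and lysines held 6 of the 9 higher genes in shControl, 3 of 7 in shKDM4D, 4 of 8 in shNFIB and 7 of 14 in shMLL1 cells, and none of the 5 folding and secretion genes was past 2-fold in any line. *P4ha2*, a catalytic subunit of prolyl 4-hydroxylase, was at 10.6 and 31.3 RPKM at day 0 and day 5 in shControl, 16.2 and 33.8 in shKDM4D, 5.48 and 25.7 in shNFIB and 7.55 and 30.8 in shMLL1 cells. It was higher at day 5 in all 4 lines, and *P4ha3*, another catalytic subunit, was lower in the knockdown lines (-1.59, -1.36 and -1.55 in shKDM4D, shNFIB and shMLL1 cells) and at -0.25 in shControl cells. Its day 0 level in shKDM4D cells lay above that of shControl cells (55.3 against 22.3). *P4ha1*, a further catalytic subunit, was higher at day 5 in shControl (1.03, 95% interval 0.98 to 1.08), shNFIB (1.13, 1.08 to 1.19) and shMLL1 cells (1.39, 1.35 to 1.43) and at 0.62 in shKDM4D cells. The *P4ha1* interval in shControl cells reaches within 2-fold. Median-of-ratios scaling shifts the day 5 to day 0 ratios there by -0.05, which brings *P4ha1* within 2-fold. *P3h3*, a prolyl 3-hydroxylase family gene, was higher in shControl (1.35, 1.24 to 1.47), shKDM4D (1.32, 1.19 to 1.45) and shMLL1 cells (1.70, 1.58 to 1.83) and at 0.90 in shNFIB cells. *P4hb*, the partner subunit of prolyl 4-hydroxylase, and *Ppib*, a prolyl isomerase of the endoplasmic reticulum, were past 2-fold in shMLL1 cells only (1.04, 1.02 to 1.05, and 1.08, 1.04 to 1.11), and were at 0.33 to 0.87 in the other lines. Median-of-ratios scaling shifts every day 5 to day 0 ratio in shMLL1 cells by -0.21, which brings both genes within 2-fold.

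Lysyl hydroxylation and cross-linking genes differed between the lines. *Plod1*, a lysyl hydroxylase, was at 10.9 and 35.0 in shControl, 15.2 and 30.0 in shKDM4D, 6.78 and 14.2 in shNFIB and 8.50 and 36.1 in shMLL1 cells. *Plod2*, which hydroxylates the ends of the chains where cross-links form, was at 9.87 and 20.0, 20.9 and 38.6, 16.4 and 35.9, and 7.91 and 35.2 in the same lines. *Lox*, the main cross-linking oxidase, was at 556 and 533 in shControl, 384 and 435 in shKDM4D and 564 and 558 in shNFIB cells, but at 178 and 468 in shMLL1 cells. The shMLL1 level at day 0 was the lowest of the 8 (log2 ratio to shControl -1.64, 95% interval -1.66 to -1.62), as were those of *Col1a1*, *Col1a2*, *Col5a1* and *Col5a2* in that library. *Loxl4* was lower at day 5 in shControl (-1.75, -1.86 to -1.64) and shKDM4D cells (-1.32, -1.42 to -1.21) and at -0.45 and -0.01 in shNFIB and shMLL1 cells.

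Propeptide removal and uptake genes differed between days and lines. *Adamts2*, the protease that removes the amino-terminal propeptide of type I collagen, was at 5.26 and 9.95 in shControl, 4.76 and 10.4 in shKDM4D, 3.41 and 7.07 in shNFIB and 2.26 and 8.60 in shMLL1 cells. *Pcolce*, an enhancer of carboxy-terminal propeptide removal, was higher at day 5 in shNFIB cells (1.13, 95% interval 1.08 to 1.18) and at 0.19, 0.78 and 0.92 in shControl, shKDM4D and shMLL1 cells. *Pcolce2*, a related enhancer, was higher than in shControl cells in shKDM4D cells at both days (1.46, 1.33 to 1.59, and 1.49, 1.38 to 1.59) and in shNFIB cells at day 0 (1.23, 1.09 to 1.36), where it was at 0.64 at day 5. In shMLL1 cells it was at 0.60 at day 0 and lower at day 5 (-1.01, -1.14 to -0.88). *Tll1*, a tolloid-like protease chosen after its values were seen, was at 0.127 RPKM in shControl cells at day 5 and at 1.24 and 1.22 in shNFIB and shMLL1 cells (3.30, 2.60 to 4.07, and 3.27, 2.61 to 4.02). *Mrc2*, an endocytic collagen receptor, was higher at day 5 in shMLL1 cells (1.45, 1.40 to 1.49) and at 0.56 to 0.81 in the other lines.

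Against shControl cells, few of the 35 genes were past 2-fold. In shKDM4D cells 3 were higher and 1 lower at each day (1.98% and 4.26% of all expressed genes at day 0, 1.88% and 4.57% at day 5). In shNFIB cells 1 was higher and 2 lower at day 0 (2.95% and 6.05% of all), and 2 and 3 at day 5 (5.54% and 5.67% of all). In shMLL1 cells 0 were higher and 6 lower at day 0 (1.67% and 7.43% of all), and 2 and 3 at day 5 (5.25% and 4.02% of all). Several of these counts, such as 1 and 2 or 2 and 3 of 35, lie near the share of all genes.

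Of 5 smooth muscle and myofibroblast markers, myofibroblasts being a known source of collagen, *Acta2* and *Tagln* were lower at day 5 in each line and *Des* and *Myh11* were higher from low levels. *Des* went from 0.350 to 1.35 in shControl cells and *Myh11* from 0.0247 to 0.177. *Cnn1*, at most 0.0686 RPKM in any library, was lower at day 5 in shControl cells and higher in the knockdown lines. The summed RPKM of the 5, nearly all of it *Acta2*, went from 1288 to 479.7 in shControl, from 1281 to 675 in shKDM4D, from 1251 to 880.0 in shNFIB and from 848 to 291 in shMLL1 cells. The endothelial, macrophage and keratinocyte lists stayed at a summed RPKM between 0.280 and 2.72 in all 8 libraries. Of 6 osteoblast markers only *Runx2* and *Phex* had an RPKM over 1 in a library, and the 6 summed to between 4.68 and 9.04. The part of these markers in the collagen values was not tested.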

How the data were processed

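RNA was isolated from the 4 lines at day 0 and day 5 and sequenced as 1 library per condition. According to the methods of the study, the authors mapped the reads to GRCm38/mm10 in CLC Genomics Workbench (version 11.0.1) at a length fraction of 0.8 and deposited RPKM values for each gene. The annotation release is not given in the sources used here. The number of mapped reads and whole reads per gene were recovered from the RPKM and the exon lengths of GENCODE M21, and between 96.2% and 96.6% of the values lay within 0.02 of a whole read. The lengths of *Col11a2* and *Col17a1* were rescaled by 1.006 and 1.042. Ratios were taken on RPKM without a pseudocount, and medians on log2(RPKM + 0.1). Exact 95% intervals are Clopper-Pearson intervals conditional on the reads of both libraries. Expressed genes had an RPKM over 1 in at least 1 library, and a call is a difference of more than 2-fold, after the limits in the study's methods, which could not include an FDR here. The study also kept only protein-coding genes and normalized in quantiles before fold changes, and the main calls here did neither. Collagens were described where their RPKM was over 10, or where it was over 1 and an interval lay wholly past 2-fold, which took in all 26. The 14 pathway genes for which both held are named, and others only for the reason given with them. The alternatives were no filter, 1 added to each RPKM, quantile normalization, median-of-ratios scaling and intervals wholly past 2-fold. The members, lists and tests were chosen with earlier results of these data known. The scripts (Python 3.11.15, scipy 1.17.1) were tested on simulated data.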

Additional observations from a re-analysis of the deposited data

Results flagged for a closer look

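In 3 cases the change of an expressed collagen from day 0 to day 5 had the opposite sign in a knockdown line and in shControl cells, with counting intervals that leave out 0 and a difference between the changes past 2-fold. Each rests on 1 library per condition, and the differences were not tested. How many of all expressed genes gave such a case was not counted. *Col8a1* was lower at day 5 in shControl cells (log2 change -3.92) and at 0.45 in shNFIB cells, a difference of 4.37. *Col18a1* was at 0.86 in shControl and at -0.51 in shMLL1 cells, a difference of -1.37. *Col5a2* was at -0.05 in shControl and at 1.16 in shMLL1 cells, a difference of 1.21. Its level was nearly the same at both days in shControl cells (79.8 and 77.1 RPKM). Both scaling alternatives put its change in shMLL1 cells at 0.95, within 2-fold.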

How the results depend on the processing

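Median-of-ratios scaling kept all 20 counts of collagens within 1.5 times, and no ratio past 2-fold turned its sign under any alternative. Both scalings moved the median of all expressed genes by over 0.1 between the days, by -0.21 (median-of-ratios) and -0.22 (quantile) in shMLL1 cells and, with median-of-ratios scaling, by -0.11 in shNFIB cells. With no filter on low values, which lets in genes with a read or more in either library, the lower collagens between the days numbered 9 in shControl, 5 in shKDM4D and 5 in shMLL1 cells, and the higher ones 23 in shMLL1 cells. Against shControl cells, the higher and lower collagens were then 8 and 9 (day 0) and 7 and 4 (day 5) in shKDM4D, 2 and 11 (day 0) and 9 and 7 (day 5) in shNFIB, and 2 and 15 (day 0) and 10 and 7 (day 5) in shMLL1 cells. With 1 added to each RPKM, 9 were higher between the days in shNFIB cells. Against shControl cells there were then 0 higher and 1 lower (day 0) and 1 and 0 (day 5) in shKDM4D, 0 higher at day 0 in shNFIB, and 0 higher and 3 lower at day 0 in shMLL1 cells. Quantile normalization left 1 lower in shKDM4D cells at day 0. Counting only intervals wholly past 2-fold left 1 higher and 1 lower at day 0 and 1 higher at day 5 in shKDM4D cells, and 0 higher at day 0 in shNFIB and shMLL1 cells. Shares of all genes under these alternatives are not given here, so the counts of collagens are not set against them. Over single genes, 99 ratios moved beyond their counting interval and 161 did not with median-of-ratios scaling, 103 and 157 with quantile normalization, and 83 and 177 with 1 added; for the 6 collagens with an RPKM of at most 10 in every library these ratios were added after seeing the data. Adding 1 to each RPKM brought within 2-fold all day 5 to day 0 calls of *Col11a2*, *Col20a1* and *Col8a2* but that of *Col8a2* in shKDM4D cells, and among better expressed genes *Col28a1* in shControl (1.40 to 0.81) and shKDM4D cells (1.49 to 0.70) and *Col18a1* in shNFIB cells (2.50 to 0.86). Adding 1 did the same for *Col27a1* in shNFIB (2.64 to 0.82) and shMLL1 cells (2.44 to 0.59). For *Col9a3* it did so in shKDM4D (1.44 to 0.46) and shMLL1 cells (1.82 to 0.66). Against shControl cells it did so for *Col15a1* and *Col23a1* at day 0 in shKDM4D (0.69 and 0.76) and shMLL1 cells (-0.57 and -0.52) and for *Col8a1* at day 5 in shKDM4D cells (-0.42). Every call of *Col9a3*, *Col11a2*, *Col20a1* and *Col27a1* against shControl cells also came within 2-fold. As a share of the summed RPKM, the collagens ran from 0.405% (shMLL1, day 0) to 1.21% (shKDM4D, day 5) and were again higher at day 5 in each line. No paired analysis was possible because each condition has 1 library. Counting intervals leave out the spread between cultures and clones.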
